A study of Mus musculus with 24 samples.

Results

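The change of the SEG effect between days is the difference between SEG and control cells at day 7 minus the same difference at day 3, taken gene by gene on the log2 scale. A positive value means that SEG cells stood higher against control cells at day 7 than at day 3, and a value of 0 means that both kinds of cells moved alike. The messenger RNA was that of mouse heart fibroblasts in EGM2, an endothelial growth medium. The comparison uses 12 of the 24 libraries, 3 each of control fibroblasts at day 3, control fibroblasts at day 7, SEG cells at day 3 and SEG cells at day 7. The labels class the SEG cells as iEC and leave SEG unexpanded, and give no genotype, animal age or means of delivering the factors. The series also holds cells labelled Erg and Sox17, 3 libraries at each day, and asks how far each condition took on endothelial gene expression. All 35727 genes of the table were considered, and the 14804 with enough counts were tested. The labels do not say whether replicates were separate cultures or separate mice. A p-value here covers the variation among the sequenced libraries only, and some or all of it may be technical.

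Sox17 and Erg are transcription factors of endothelium, the cell layer that lines blood vessels; Sox17 is known for its part in arterial vessels and Erg for keeping endothelial genes on. Fibroblasts make and remodel the collagen matrix of the heart and carry receptors such as Pdgfra. Cultured fibroblasts can also take on contractile genes, leave the cell cycle or express complement and acute phase genes, so a changed difference from control can come from either side, and the day change of each side was therefore tested beside it.

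Both factor genes lay on the side of their labels and neither passed the test for a changed effect. With the few control counts given below, that test could hardly show a change in either gene. The day changes in SEG cells did not pass either, at -0.53 (adjusted p = 0.20) for Sox17 and -0.40 (adjusted p = 0.13) for Erg. Sox17 had 0 counts in all 6 control libraries, so its fitted value is no measure of a fold. In SEG cells it had 1016, 955 and 1054 CPM (counts relative to the library size after TMM scaling) in its 3 libraries of day 3 and 461, 819 and 816 CPM in those of day 7, and values of 3 libraries are given below in the order of their replicate numbers. Erg had 1281, 1269 and 1254 CPM at day 3 and 836, 1039 and 1008 CPM at day 7 in SEG cells, against 2 counts in all over the 3 control libraries of each day. In both genes replicate 1 of SEG at day 7 was the lowest of its group. Total counts ran from 18794422 to 26827713 over the 12 libraries. Replicate 1 of SEG at day 7 stood apart: ribosomal protein genes held 5.40% of all counts there against 3.66% and 3.68% in the other 2 libraries of its group. Replicate 1 of Sox17 at day 7, which enters the comparison of SEG with control only through the shared estimate of the spread, stood apart further, at 7.76%. The coefficient of biological variation shared by all genes was 0.170 with both of these libraries in the fit and 0.0690 without them, so counts of calls are given both ways for the lists where they differed most. Of the defining markers, the 6 endothelial ones summed to 1.83 to 3.23 CPM in control libraries, to 1380 to 1520 CPM in SEG at day 3 and to 1880 to 2200 CPM in SEG at day 7. The 6 fibroblast markers summed to 14400 CPM or more in control and to 9470 CPM or more in SEG libraries, and most of the SEG sum was Col1a1. The other 5 summed to between 5540 and 7950 CPM in control libraries and between 1310 and 1600 CPM in SEG libraries.

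The SEG effect changed between the days in 1756 genes, 11.9% of those tested, at an adjusted p under 0.05 by edgeR's quasi-likelihood test with Benjamini-Hochberg adjustment. In 902 genes (6.09%) SEG stood higher against control at day 7 than at day 3 and in 854 (5.77%) it stood lower. Among called genes the median size of the change was 0.96 in log2, 839 genes reached 1 and 296 reached 2, while the median over all genes tested was -0.02. Without the outlying day 7 libraries of SEG and Sox17 the counts rose to 2127 higher and 1647 lower, which included 1742 of the 1756 genes. That was 3774 of the 15003 genes tested in that fit, a larger share than the 11.9% above. Every list count without both outlying libraries given below is to be read against it, as a growing count alone says nothing particular about a list. In bulk RNA, fewer cells of a type and less RNA per cell cannot be told apart, and this holds for each gene below.

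Control cells moved in more of these genes than SEG cells did. A gene was taken to have moved in a cell type where its day 7 against day 3 difference passed the same test, which 27.2% of all genes did in SEG cells and 29.5% in control cells. Of the 1756 genes, 624 (35.5%) moved in control cells and did not pass in SEG cells, 506 (28.8%) moved in SEG cells and did not pass in control cells, 228 (13.0%) moved in both in opposite directions and 361 (20.6%) moved in both the same way by unequal amounts. The other 37 (2.1%) passed in neither. By size alone, the control change was the larger in 1005 genes and the SEG change in 751. Genes that moved in control cells alone more often ended with a lower SEG effect (348 of 624), and genes that moved in SEG cells alone more often with a higher one (277 of 506). Rises also outnumbered falls over all genes, at 2385 against 1983 in control cells and 2110 against 1914 in SEG cells. The lean among called genes was therefore not particular to them. Without both outlying libraries 1204 genes moved in control alone, 903 in SEG alone, 538 in opposite directions and 1054 the same way. A group of 90 called genes had under 10 counts summed over the libraries of a group, and for those the fitted size depends on edgeR's prior count.

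**Figure D1:**
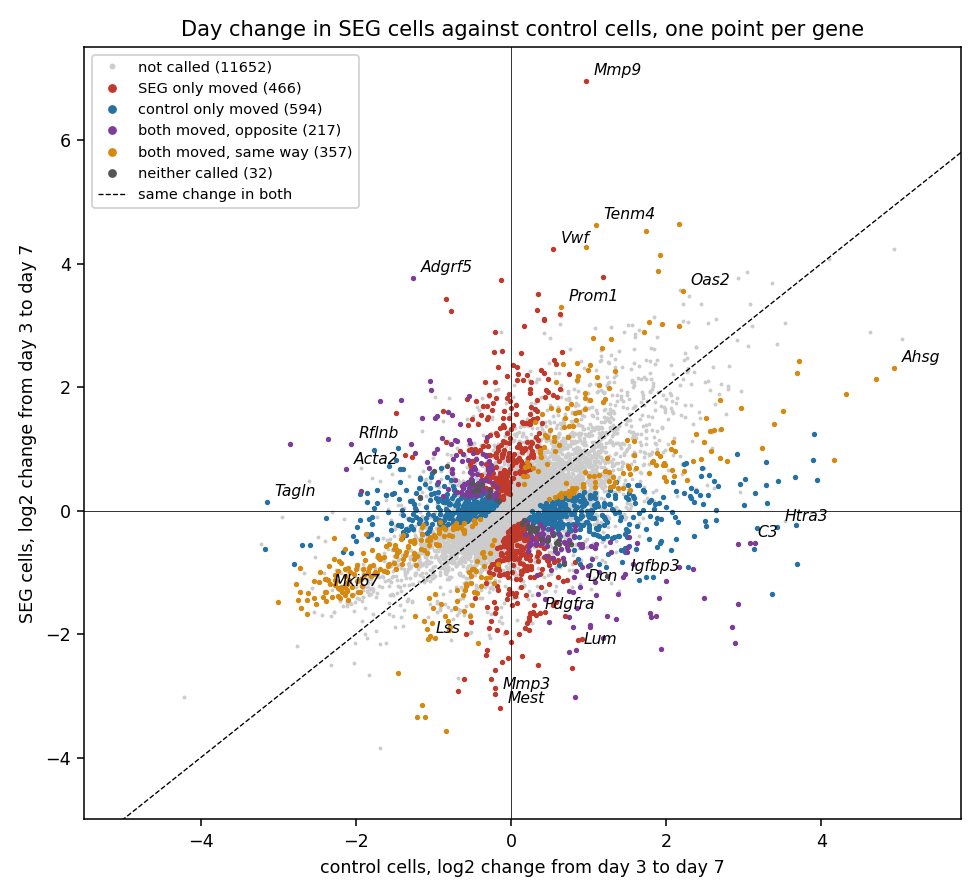
Each point is a gene, with its log2 change from day 3 to day 7 in control cells on the horizontal axis and in SEG cells on the vertical axis; colours give which cells moved, for genes with at least 10 counts in each of the 4 groups, and the dashed line marks an equal change. Points far above the line had a higher SEG effect at day 7 (Mmp9, Adgrf5, Tagln) and points far below it a lower one (Htra3, C3, Mest).

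The same genes can be read by what became of the difference between SEG and control. It was called at both days with the same sign and was larger at day 7 in 574 genes (32.7%), and was called at day 7 only in 496 (28.2%). It was called at day 3 only in 313 (17.8%), was called at both days but smaller at day 7 in 222 (12.6%), and had opposite signs at the 2 days in 136 (7.7%). Read together, SEG and control lay further apart at day 7 in 1070 genes that gained or enlarged their difference, and closer in 535 that lost or reduced it. Of the reversed genes, 91 went from lower in SEG to higher in SEG and 45 went the other way. For comparison, 5946 of all genes (40.2%) differed between SEG and control at day 3 and 6557 (44.3%) at day 7.

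**Figure D2:**
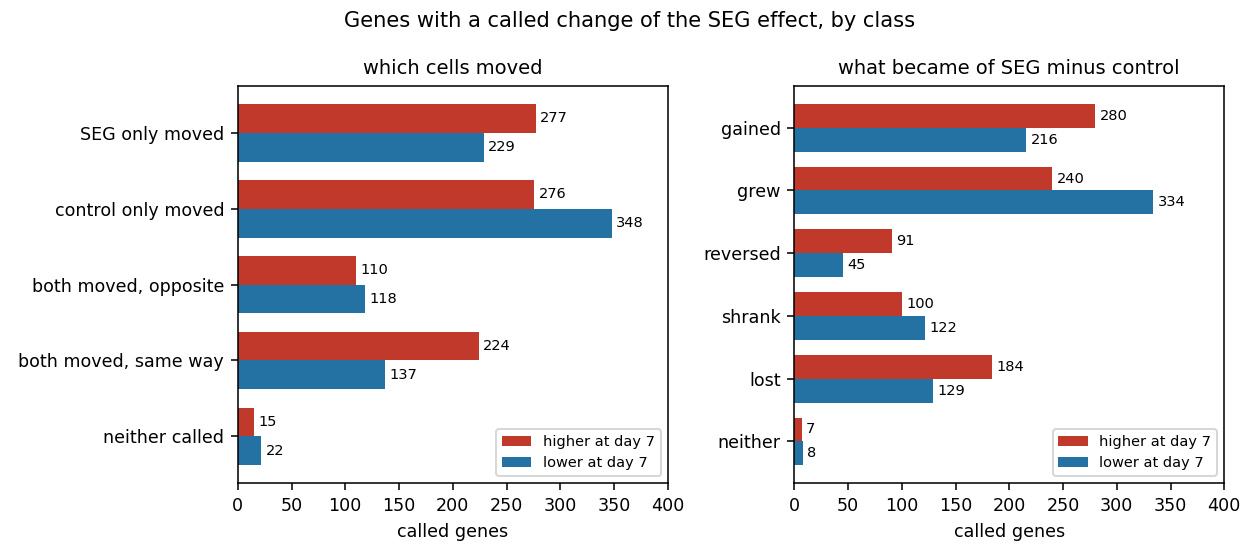
Bars count the 1756 called genes, on the left by which cells moved between the days and on the right by what became of the difference between SEG and control, split by whether SEG stood higher or lower against control at day 7. The longest bars are genes that moved in control alone with a lower effect (348) and lower effects that grew (334).

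Vwf and Mmp9 were among the 277 genes that moved in SEG cells alone and ended with a higher effect. Vwf (ENSMUSG00000001930, chromosome 6, 125546774 to 125686679, plus strand of mm10, protein coding) encodes von Willebrand factor, the platelet-binding protein that endothelial cells store. It had 1.51, 0.941 and 0.921 CPM in control at day 3, 1.30, 1.64 and 1.90 CPM in control at day 7, 1.12, 1.17 and 1.57 CPM in SEG at day 3 and 17.4, 19.2 and 37.2 CPM in SEG at day 7. The 3 SEG libraries of day 7 lay above all others, while SEG and control overlapped at day 3. Its SEG effect rose by 3.70 (SE 0.47, adjusted p = 1.6e-05), with a SEG day change of 4.24 (adjusted p = 5.2e-09) and a control day change of 0.54 (adjusted p = 0.28). Mmp9 (ENSMUSG00000017737, chromosome 2, 164940780 to 164955850, plus strand), a gelatinase, likewise had 0.102, 0.113 and 0.187 CPM in SEG at day 3 and 16.2, 12.4 and 24.2 CPM at day 7. Control libraries held 0.818 CPM at most, so only the SEG libraries of day 7 were high. The change of 5.99 (SE 0.69, adjusted p = 5.0e-06) was the largest among genes that moved in SEG alone and had 10 counts or more in each group.

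Arterial and Notch pathway genes were called higher more often than lower, 11 against 3 of 31 tested (45.2% called, against 11.9% of all genes), with a median change of 0.39 against -0.02 over all genes. Hey1, a repressor switched on by Notch, had 0.335, 0.694 and 0.870 CPM in control at day 3, 0.567, 0.545 and 0.423 CPM in control at day 7, 44.3, 38.6 and 39.4 CPM in SEG at day 3 and 174, 168 and 176 CPM in SEG at day 7. SEG libraries lay above control at both days without overlap, and further above at day 7. Its effect rose by 2.42 (SE 0.35, adjusted p = 6.9e-05), and the SEG day change was 2.08 (adjusted p = 5.2e-09). Jag2, a Notch ligand, rose from 1.16 ± 0.197 CPM to 15.5 ± 1.27 CPM in SEG cells (SD, n = 3), against 10 counts over the control libraries of each day, with a change of 3.86 (SE 0.91, adjusted p = 0.0068). Sema3g, a semaphorin made by arterial endothelium, went from 35.8, 33.3 and 32.9 CPM to 415, 466 and 524 CPM in SEG cells. It had 12 counts over the control libraries of day 3 and 7 over those of day 7, so its change of 4.67 (SE 0.64, adjusted p = 4.1e-05) rests on few control counts. Sema3g is one of 4 members of the list that moved in SEG cells alone and rose, with Hey1, Jag2 and Slc45a4.

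The 3 members called lower in that list were Igfbp3, Gja1 and Cxcl12, and without both outlying libraries 13 members were higher and 5 lower. Igfbp3, which binds insulin-like growth factors, had 2306, 2505 and 2407 CPM in SEG at day 3 and 1193, 1139 and 1091 CPM at day 7, while control libraries held 56.0, 52.9 and 53.0 CPM and then 163, 146 and 129 CPM. SEG stayed above control at both days, and both sides moved towards each other. Its effect changed by -2.51 (SE 0.15, adjusted p = 8.9e-10), from 5.48 at day 3 to 2.96 at day 7. Gja5 and Dll4, an arterial connexin and a Notch ligand, did not pass (adjusted p = 0.96 and 0.66). Over the control libraries of day 3 and of day 7 there were 2 and 4 counts of Gja5 and 4 and 5 counts of Dll4. In SEG cells Gja5 had 597 ± 4.77 CPM and then 875 ± 26.4 CPM, and Dll4 102 ± 2.85 and then 265 ± 3.38 CPM.

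Endothelial junction and surface genes split, 6 called higher and 4 lower of 39 (25.6%), with a median of -0.37. Without both outlying libraries the split was 7 higher and 11 lower. Mcam, an adhesion molecule of vessel walls, had 121, 114 and 115 CPM in SEG at day 3 and 359.9, 340.4 and 353 CPM at day 7. Control libraries fell from 3.83 ± 0.470 to 2.17 ± 0.384 CPM, so both sides moved apart, and the change was 2.40 (SE 0.19, adjusted p = 4.0e-08). Cdh5, the cadherin of endothelial junctions, had 646, 615 and 675 CPM in SEG at day 3 and 727, 967 and 1010.0 CPM at day 7, with 0.819 CPM or less in control. Its change of 2.17 (SE 0.70, adjusted p = 0.05) missed the threshold with all libraries and passed it without replicate 1 of SEG at day 7, at 2.34 (adjusted p = 0.041). Both values of Cdh5 rest on few control counts, with 0.519 ± 0.261 CPM in control at day 3 and 0.152 ± 0.110 CPM at day 7. Pecam1, a surface receptor of endothelium, rose in both, from 0.262 ± 0.156 to 0.926 ± 0.221 CPM in control cells and from 69.7 ± 5.89 to 200.2 ± 14.9 CPM in SEG cells. The changes in Pecam1 differed by -0.30 (SE 0.34, adjusted p = 0.75), within the error. Kdr, the main VEGF receptor of endothelium, and the surface sialomucin Emcn did not pass either, with values of -0.85 (SE 0.54, adjusted p = 0.4) and -0.80 (SE 0.51, adjusted p = 0.4), and Tie1, an endothelial receptor kinase, had a value of 1.78 (SE 1.23, adjusted p = 0.46). Control cells held 0.0729 and then 0.0455 CPM of Tie1 on average, so that value too rests on few counts.

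Among 33 vascular growth factor receptors and ligands, 8 were called lower and 4 higher (36.4%), with a median of -0.24. With both outlying libraries left out these were 12 and 6. Pdgfb, the ligand by which endothelium recruits mural cells, had 40.1, 39.4 and 40.9 CPM in SEG at day 3 and 171, 169.7 and 169 CPM at day 7. Its control libraries held 8 counts in all at day 3 and 4 at day 7, so the change of 3.16 (SE 0.66, adjusted p = 0.0036) depends on few counts. The SEG day change alone was 2.08 (adjusted p = 3.0e-09), with no overlap between the days. Tek, the angiopoietin receptor, had 18.4, 19.4 and 17.1 CPM and then 27.3, 23.5 and 22.7 CPM in control cells, and 39.7, 36.0 and 40.3 CPM and then 21.5, 27.5 and 26.8 CPM in SEG cells. SEG was higher at day 3 and overlapped control at day 7, where the effect was 0.05. The effect on Tek changed by -1.03 (SE 0.23, adjusted p = 0.0038). Esm1, a proteoglycan of sprouting endothelium, fell in SEG cells from 82.5 ± 2.18 to 24.9 ± 3.59 CPM. In control cells it rose from 1.70 ± 0.129 to 2.82 ± 0.875 CPM (0.75 (adjusted p = 0.023)). Its effect changed by -2.48 (SE 0.30, adjusted p = 1.0e-05) from both sides while staying positive. Of 27 endothelial transcription factors, 3 were called higher and 4 lower (25.9%), and 5 and 7 with both outlying libraries left out. Klf2, a factor induced by flow, fell in control cells from 49.0 ± 4.72 to 17.0 ± 1.87 CPM and had 49.0 ± 3.09 and 59.2 ± 10.5 CPM in SEG cells, with a change of 1.80 (SE 0.19, adjusted p = 2.3e-06). Lmo2, a partner of blood and vessel factors, rose in both and rose more in control cells, which gave -1.16 (SE 0.20, adjusted p = 4.3e-04).

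Adgrf5 and Rflnb moved apart from both sides. Adgrf5, an adhesion receptor of endothelium and lung epithelium, had 1.28, 1.04 and 1.23 CPM in control at day 3 and 0.510, 0.545 and 0.423 CPM at day 7. In SEG it had 6.14, 4.07 and 5.76 CPM and then 54.9, 79.1 and 81.9 CPM, so SEG rose, control fell and no groups overlapped. Its effect rose by 5.02 (SE 0.32, adjusted p = 1.6e-09), the largest rise among genes of this class with 10 counts or more in each group. Rflnb, a regulator of filamin, showed the smallest p of the genes named here, with 34.0, 31.9 and 33.1 CPM and then 7.77, 7.73 and 8.16 CPM in control cells. SEG cells held 105, 90.7 and 102 CPM and then 205, 213 and 209 CPM of Rflnb, and the effect rose by 3.14 (SE 0.11, adjusted p = 9.6e-13). Sema7a, a membrane-anchored semaphorin, and Dkk2, a secreted Wnt modulator, followed with 3.46 (SE 0.32, adjusted p = 2.6e-07) and 2.98 (SE 0.34, adjusted p = 5.3e-06).

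Other genes were high in SEG cells at day 3 and fell by day 7. Mest (ENSMUSG00000051855, chromosome 6, 30723547 to 30748465, plus strand), an imprinted gene of mesoderm, had 312, 253 and 314 CPM in SEG at day 3 and 30.7, 31.9 and 32.8 CPM at day 7. Control libraries held between 0.818 and 1.59 CPM at both days, so SEG stayed above control and came nearer. The effect changed by -3.06 (SE 0.43, adjusted p = 5.1e-05), all of it from the SEG side (-3.21 (adjusted p = 5.7e-09)). Klhl4, a kelch family gene, fell in SEG cells from 36.2, 35.1 and 37.0 CPM to 4.02, 6.69 and 7.70 CPM, just under the 8.79, 8.14 and 8.0 CPM of control at day 7. Its effect changed by -3.34 (SE 0.49, adjusted p = 9.0e-05) and was no longer called at day 7 (-0.43). Fabp4, the fatty acid binding protein of capillaries and fat cells, had 401, 366 and 384 CPM and then 104, 74.1 and 84.0 CPM in SEG cells. Control libraries of Fabp4 lay between 36.0 and 38.8 CPM throughout, and the effect changed by -2.13 (SE 0.26, adjusted p = 9.5e-06). The prostaglandin synthase gene Ptgs2 fell in SEG from 211 ± 5.65 to 76.1 ± 19.1 CPM with a change of -1.25 (SE 0.37, adjusted p = 0.029), at -1.02 (adjusted p = 0.087) without replicate 1 of SEG at day 7 and -1.02 (adjusted p = 2.0e-05) without both outlying libraries.

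**Figure D3:**
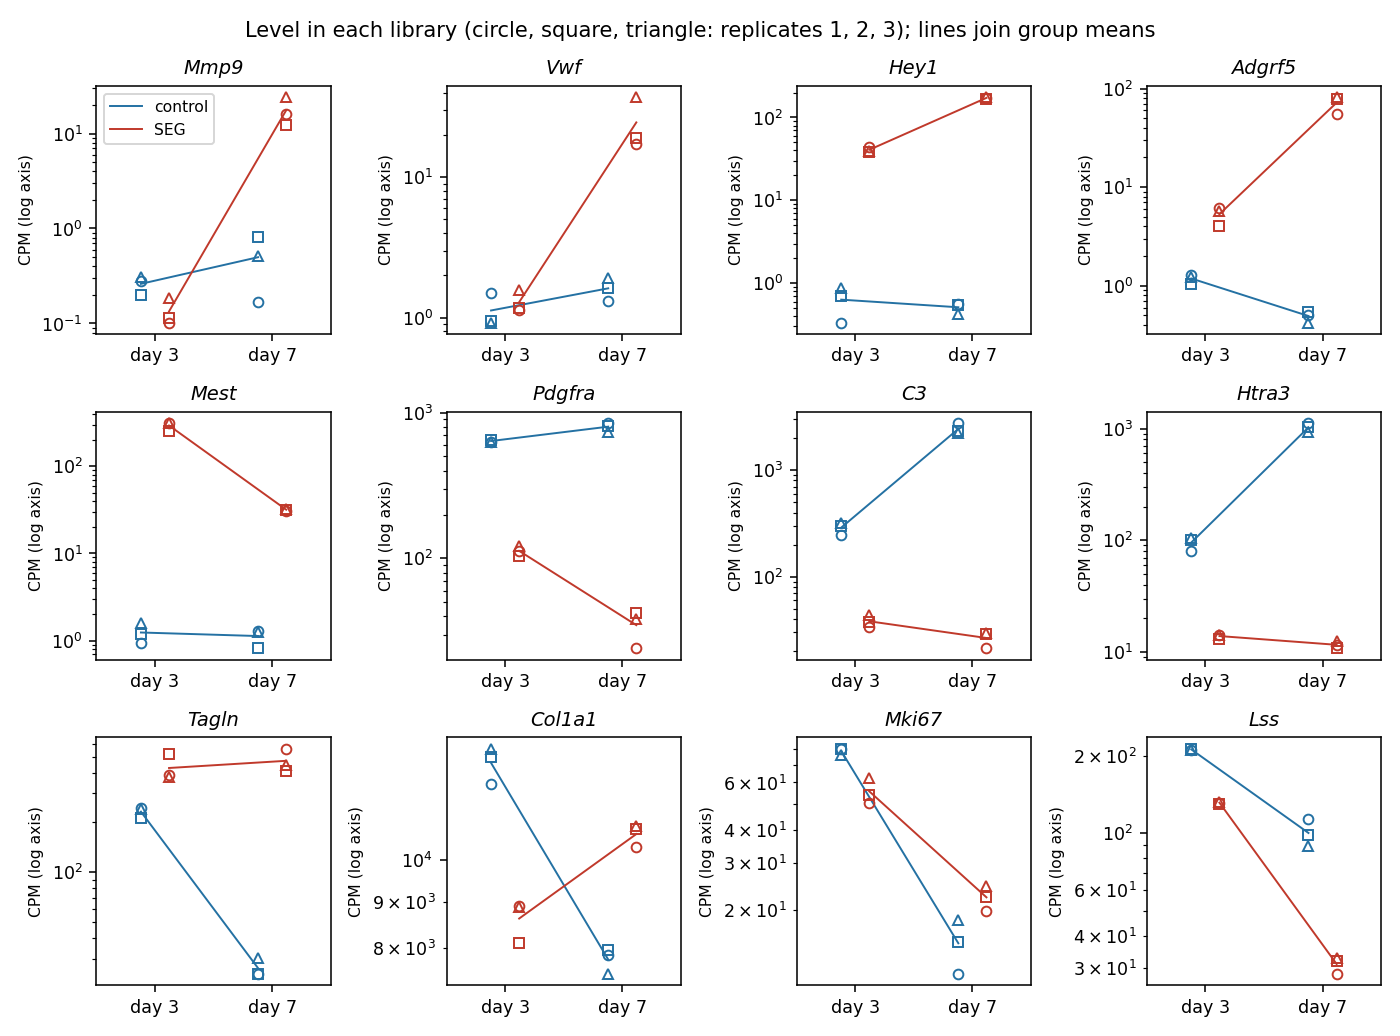
Each panel shows a gene's CPM on a log axis in every library of control (blue) and SEG (red) cells at day 3 and day 7, with circles, squares and triangles for replicates 1, 2 and 3 and lines joining group means. In Mmp9, Vwf and Hey1 the SEG line rises, and in Mest and Pdgfra it falls. In Htra3 and Tagln the control line moves, and in C3 the control line rises while the SEG line falls by less.

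Of 36 fibroblast identity genes 17 were called lower and 3 higher (55.6% called), with a median change of -0.47. With the 2 outlying libraries left out, 19 were lower and 11 higher. Some of these genes moved in SEG cells and others in control cells. Pdgfra, the PDGF receptor of fibroblasts, fell in SEG cells, which held 113, 104 and 121 CPM at day 3 and 24.2, 42.2 and 38.3 CPM at day 7. Control cells held 633, 651 and 631 CPM and then 850.3, 813 and 739 CPM, a change that did not pass (0.33 (adjusted p = 0.36)), and the effect changed by -2.02 (SE 0.35, adjusted p = 4.6e-04). Htra3 (ENSMUSG00000029096, chromosome 5, 35652023 to 35679782, minus strand), a secreted serine protease, went the other way round. It rose in control cells from 80.2, 101 and 105 CPM to 1123, 1024 and 925 CPM, while SEG libraries held 14.2, 13.2 and 14.3 CPM and then 11.5, 10.8 and 12.5 CPM. Control at day 7 lay far above the other 3 groups, and the effect changed by -3.68 (SE 0.20, adjusted p = 4.4e-10). Gsn, which severs actin filaments, rose in control cells from 1861 ± 204 to 11600 ± 727 CPM with 372 ± 4.02 and 333 ± 51.8 CPM in SEG cells, a change of -2.80 (SE 0.19, adjusted p = 4.4e-09).

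The matrix proteoglycans Dcn and Lum and the matrix protein Dpt moved in both. Dcn rose in control cells (630.1, 686 and 736 CPM, then 1387, 1216 and 1196 CPM) and fell in SEG cells (164, 151 and 172 CPM, then 60.0, 73.4 and 73.5 CPM). No groups overlapped, and the effect changed by -2.12 (SE 0.16, adjusted p = 1.9e-08). For Lum and Dpt the values were -3.09 (SE 0.22, adjusted p = 6.7e-09) and -3.47 (SE 0.20, adjusted p = 8.9e-10), with control day changes of 0.83 and 2.92 and SEG day changes of -2.26 and -0.55. The 3 members called higher were Vim, Pdgfrb and Cd248, with changes of 0.51, 0.55 and 0.98. Mmp3, the protease stromelysin that fibroblasts secrete, belongs to the protease list and fell in SEG cells from 314, 305 and 351 CPM to 45.7, 38.8 and 38.7 CPM. In control cells Mmp3 had 1912 ± 83.0 and 1657 ± 51.2 CPM, and its effect changed by -2.77 (SE 0.19, adjusted p = 4.4e-09).

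Of 16 complement genes 15 rose and 1 fell in control cells, where 16.1% of all genes rose and 13.4% fell. In SEG cells 11 rose and 2 fell, against 14.3% and 12.9% of all genes. Of 26 inflammation and acute phase genes 13 rose and 3 fell in control cells, and 7 rose and 5 fell in SEG cells. The effect on complement genes was called lower in 8 and higher in 3 (68.8%), with a median change of -1.08, and on inflammation and acute phase genes lower in 12 and higher in 1 (50.0%), with a median of -0.65. Over members with at least 10 counts in each of the 4 groups the medians were smaller, at -0.86 (15 genes) and -0.35 (21 genes). Without replicate 1 of SEG at day 7 the second list had 8 lower calls, and without both outlying libraries 14 lower and 2 higher. C3 (ENSMUSG00000024164, chromosome 17, 57203970 to 57228136, minus strand), the central complement component, had 246, 298 and 322 CPM in control at day 3 and 2776, 2326 and 2211 CPM at day 7. SEG libraries held 33.5, 37.4 and 43.4 CPM and then 21.3, 29.0 and 29.5 CPM. Both sides thus moved, with day changes of 3.08 in control and -0.52 (adjusted p = 0.010) in SEG cells. Control libraries of day 3 lay above all SEG libraries (-2.92 (adjusted p = 4.5e-12)) and those of day 7 higher still, and the effect on C3 changed by -3.60 (SE 0.21, adjusted p = 8.9e-10). C4b gave -2.95 (SE 0.25, adjusted p = 8.3e-08), with the caution that it has a near-identical copy whose reads the authors' counting may have split. Cfb, an activator of complement, rose in both, from 3.38 ± 0.980 to 88.1 ± 10.4 CPM in control and from 0.522 ± 0.422 to 2.39 ± 0.457 CPM in SEG cells, which left a change of -2.57 (SE 0.71, adjusted p = 0.021). C7, a component of the membrane attack complex, rose in control cells from 1.60 ± 0.112 to 25.8 ± 5.26 CPM. It had 3 counts over the SEG libraries of day 3 and 0 over those of day 7, so no fold is given for SEG and its fitted change is no bound.

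Hp, the haemoglobin-binding haptoglobin of the acute phase, had 11.5, 15.7 and 21.7 CPM and then 206, 139 and 157 CPM in control cells, against 1.83 CPM or less in every SEG library. Its effect changed by -4.71 (SE 0.60, adjusted p = 1.7e-05). Il33, an alarm cytokine, rose in control from 5.0 ± 0.901 to 35.6 ± 3.75 CPM with 17 counts over the SEG libraries of day 3 and 9 over those of day 7, and changed by -3.67 (SE 0.54, adjusted p = 8.6e-05). Lcn2, an iron-scavenging acute phase protein, changed by -2.21 (SE 0.63, adjusted p = 0.025), by -1.75 without replicate 1 of SEG at day 7 (adjusted p = 0.062) and by -1.74 without both outlying libraries (adjusted p = 0.0045). Outside these lists, the translation factor gene Eef1a2 also rose in control cells, from 11.3 ± 1.49 to 86.2 ± 13.7 CPM, and fell in SEG cells, from 1.22 ± 0.417 to 0.429 ± 0.101 CPM.

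Contractile genes stood higher against control at day 7. Of 20 tested, 10 were called higher and 1, Synpo2, lower (55.0%), with a median change of 0.88. In control cells 11 of the genes fell between the days and 3 rose, and in SEG cells 2 fell and 7 rose. Tagln (ENSMUSG00000032085, chromosome 9, 45929619 to 45936058, minus strand), an actin-binding protein of smooth muscle, had 243, 214 and 240.3 CPM in control at day 3 and 24.3, 24.2 and 30.2 CPM at day 7. SEG libraries held 385, 522 and 375 CPM and then 560.0, 409 and 448 CPM and overlapped between the days. Its effect rose by 3.29 (SE 0.31, adjusted p = 3.2e-07) through the control side. Acta2, smooth muscle actin, fell in control from 300.1, 260.4 and 287 CPM to 70.5, 58.3 and 65.5 CPM and rose in SEG from 642, 836 and 632 CPM to 1270.3, 1006 and 1071 CPM. No 2 groups of Acta2 overlapped, and the change was 2.79 (SE 0.25, adjusted p = 2.5e-07). Lmod1, which nucleates actin filaments in smooth muscle, moved in SEG cells alone, from 3.60 ± 0.877 to 12.8 ± 1.20 CPM, with a change of 2.02 (SE 0.41, adjusted p = 0.0021).

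Fibrillar collagens and their modifying enzymes were called higher in 11 and lower in 4 of 29 (51.7%), with a median of 0.24, and without both outlying libraries in 17 and 5. In control cells 14 of these genes fell and 7 rose between the days, and in SEG cells 4 fell and 5 rose. Col1a1, a chain of the main heart collagen, had 12102, 12953 and 13231 CPM in control at day 3 and 7861, 7971 and 7497 CPM at day 7. In SEG it had 8889, 8102 and 8876 CPM and then 10325, 10800 and 10879 CPM, so SEG lay below control at day 3 and above it at day 7 without overlap. The effect on Col1a1 went from -0.57 to 0.46, a change of 1.02 (SE 0.16, adjusted p = 1.3e-04). Col3a1, its usual partner, had 4522 ± 348 and 4703 ± 318 CPM in control and 1175 ± 97.0 and 1357 ± 124 CPM in SEG cells, and its value of 0.15 (SE 0.20, adjusted p = 0.76) did not pass. Col12a1, a collagen bound to fibril surfaces, fell in control cells from 376, 361 and 379 CPM to 71.2, 66.7 and 74.9 CPM. SEG libraries of Col12a1 held 299, 315 and 319 CPM and then 179, 338 and 343 CPM, where replicate 1 was the low one, and the change was 2.27 (SE 0.45, adjusted p = 0.0018). Lox and Loxl2, which crosslink collagen, gave 1.42 (SE 0.37, adjusted p = 0.014) and 1.26 (SE 0.28, adjusted p = 0.0045).

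Basement membrane genes held fewer calls, with 4 higher and 1 lower of 24 (20.8%), and without both outlying libraries 10 and 2. Lama5, a laminin chain of endothelial basement membrane, moved in SEG cells alone, from 21.4, 20.2 and 24.1 CPM to 57.3, 71.9 and 82.5 CPM, against 18.1, 20.5 and 21.4 CPM and then 16.0, 17.0 and 15.5 CPM in control cells. Its effect rose by 1.99 (SE 0.23, adjusted p = 6.4e-06).

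Cell cycle genes fell between the days in both kinds of cells and fell further in control cells. Of 42 mitosis genes 25 were called higher and 0 lower (59.5%), with a median day change of -1.21 in SEG cells, -2.07 in control cells and a median change of the effect of 0.81. Of 41 DNA replication genes 19 were higher and 0 lower (46.3%), with medians of -0.72, -1.36 and 0.62. Without both outlying libraries 35 mitosis and 28 replication genes were higher, and none was lower. Many genes of mitosis carry in their promoters a CCAAT box, bound by the factor NF-Y, and the element TTTGAA, the core of the cell cycle genes homology region, which recruits repressor complexes in resting cells. As these genes moved together, the 200 bases before the start of a pair of them are shown in the 5′ to 3′ direction of the gene, with both motifs on either strand (for CCAAT also read as ATTGG, and for TTTGAA also read as TTCAAA) in capitals. The sequences are from RefSeq, build GRCm38.p6, and the motifs do not overlap in them. The pair was picked by size of change from called genes whose windows held both motifs, so holding both was a condition of being shown. The first window is chr4:118437344-118437543 and the second chr7:135716380-135716579, both on the minus strand.
Cdc20: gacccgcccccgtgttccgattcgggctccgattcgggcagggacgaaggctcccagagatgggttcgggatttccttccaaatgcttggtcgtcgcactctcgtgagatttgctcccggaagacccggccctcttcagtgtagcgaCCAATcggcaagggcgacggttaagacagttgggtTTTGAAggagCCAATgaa
Mki67: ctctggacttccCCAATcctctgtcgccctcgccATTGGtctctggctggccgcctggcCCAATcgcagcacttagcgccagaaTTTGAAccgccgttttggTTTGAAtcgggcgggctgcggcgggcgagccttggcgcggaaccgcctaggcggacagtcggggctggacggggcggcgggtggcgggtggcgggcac
Cdc20, which activates the anaphase ubiquitin ligase, held TTTGAA in 1 place and CCAAT in 2, and the proliferation marker Mki67 held them in 2 and 3 places. Windows were found for 35 of the 42 mitosis genes. Of these genes 27 held CCAAT and 11 held TTTGAA, which by window was 77.5% and 32.5%, against 29.3% and 12.5% of all 32851 windows of the same length. Of the 21 called ones among them, 15 held CCAAT and 7 held TTTGAA. Of 35 replication genes with a window 19 held CCAAT and 4 held TTTGAA, and such a match is a description of letters, not of binding.

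The levels of these genes show the same order. Cdc20 had 63.6, 67.1 and 65.7 CPM and then 13.2, 16.3 and 16.2 CPM in control cells, and 92.9, 108 and 92.2 CPM and then 56.9, 48.5 and 48.1 CPM in SEG cells. SEG lay above control at both days, and the effect rose by 1.17 (SE 0.17, adjusted p = 9.6e-05). Mki67 fell in control from 80.1, 80.4 and 75.8 CPM to 11.5, 15.1 and 18.4 CPM and in SEG from 50.4, 53.8 and 62.5 CPM to 19.8, 22.4 and 24.6 CPM. SEG of Mki67 lay below control at day 3 and above it at day 7, without overlap at either day, and the change was 1.07 (SE 0.26, adjusted p = 0.0084). Rrm2 (ENSMUSG00000020649, chromosome 12, 24708241 to 24714146, plus strand), a subunit of the enzyme that makes deoxyribonucleotides, had 93.5, 92.8 and 96.1 CPM and then 18.4, 18.4 and 18.8 CPM in control cells. In SEG it had 60.6, 59.2 and 59.1 CPM and then 34.3, 29.2 and 32.9 CPM, so it too crossed over, with a change of 1.45 (SE 0.10, adjusted p = 4.5e-09). Cyclin A, encoded by Ccna2, crossed in the same way and changed by 1.31 (SE 0.15, adjusted p = 4.6e-06). The survivin gene Birc5, called with all libraries at 1.16 (SE 0.34, adjusted p = 0.029), was at 1.03 (adjusted p = 0.076) without replicate 1 of SEG at day 7 and at 1.03 (adjusted p = 2.6e-06) without both outlying libraries. In the list of CDK inhibitors and G1 cyclins 3 of 16 were called higher (18.8%) and none lower, and without both outlying libraries 10 higher and 2 lower. Over all genes 3774 of 15003 were called in that fit. Ccnd1, cyclin D, rose in SEG cells from 193 ± 2.84 to 368 ± 9.78 CPM and Cdkn1c, a CDK inhibitor, from 12.6 ± 0.625 to 47.0 ± 5.73 CPM, and both stayed below control.

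**Figure D4:**
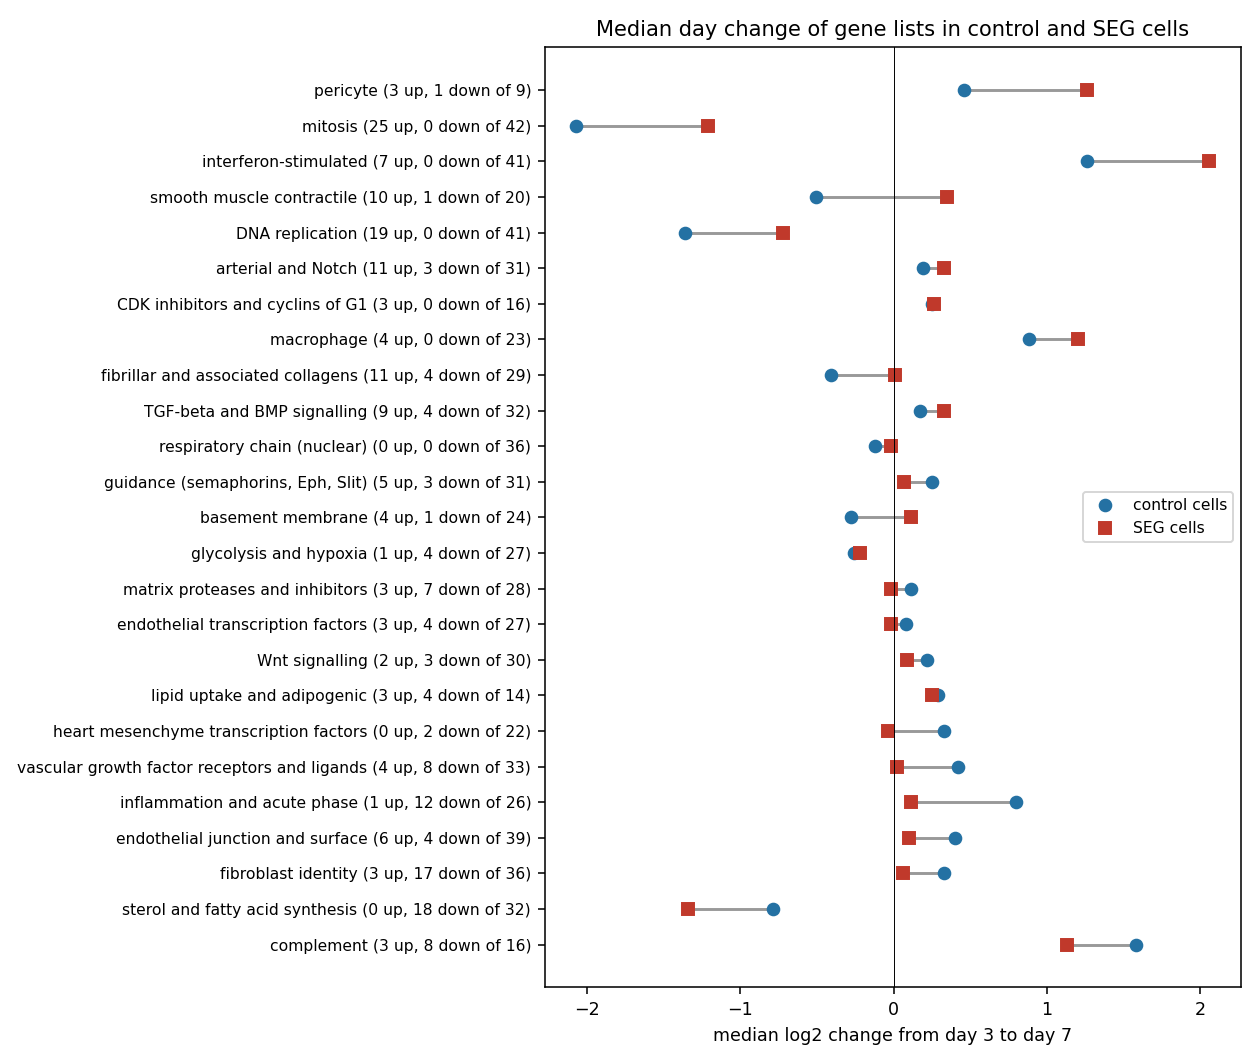
For the 25 gene lists with 9 or more genes tested, blue circles give the median log2 change from day 3 to day 7 in control cells and red squares the median in SEG cells, joined by a line. These medians, and the median change of the SEG effect that orders the lists, are over members with at least 10 counts in each of the 4 groups. They can differ from medians over all members tested. The labels count genes called higher (up) and lower (down) among all tested. Mitosis and replication genes lie left of 0 in both with control further left, and sterol genes lie left of 0 with SEG further left.

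Sterol and fatty acid synthesis genes moved in the other direction, falling in both and further in SEG cells. All 32 members fell in SEG cells and 30 of them in control cells, and for 18 the SEG effect was called lower and for 0 higher (56.2%), with medians of -1.34 in SEG cells, -0.79 in control cells and -0.64 for the effect. Without both outlying libraries 27 were lower. Genes of this pathway are switched on by SREBP factors, which act with NF-Y at CCAAT boxes. The windows of a pair of them, chr2:155517843-155518042 and chr10:76531405-76531604 on the plus strand, are shown from the same source with CCAAT, or ATTGG on the other strand, in capitals.
Acss2: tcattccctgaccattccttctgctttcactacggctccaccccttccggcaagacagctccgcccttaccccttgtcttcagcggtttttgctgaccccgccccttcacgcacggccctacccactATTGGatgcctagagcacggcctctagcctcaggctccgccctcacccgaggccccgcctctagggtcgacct
Lss: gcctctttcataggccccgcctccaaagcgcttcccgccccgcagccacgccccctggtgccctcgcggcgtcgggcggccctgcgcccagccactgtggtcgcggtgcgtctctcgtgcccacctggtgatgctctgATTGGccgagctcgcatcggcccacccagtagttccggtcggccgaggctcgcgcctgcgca
By size of change, this pair was picked from called genes whose windows held CCAAT, and each held 1 such match. Of 21 members with a window 16 held CCAAT, which by window was 65.4% against 29.3% of all windows. Of the 13 called members with a window, 10 held CCAAT. Lss (ENSMUSG00000033105, chromosome 10, 76531588 to 76557138, plus strand), lanosterol synthase, had 210.1, 213 and 211 CPM and then 113, 98.1 and 89.4 CPM in control cells. In SEG cells Lss had 131, 130.0 and 133 CPM and then 28.4, 31.9 and 32.9 CPM, and the effect changed by -1.002 (SE 0.18, adjusted p = 8.5e-04). All 4 groups were apart, with SEG below control at both days. Acss2, which makes acetyl coenzyme A, fell from 55.9, 57.0 and 54.5 CPM to 15.2, 14.5 and 14.2 CPM in SEG cells and from 103, 112 and 116 CPM to 69.9, 62.7 and 57.6 CPM in control cells, with a change of -1.13 (SE 0.13, adjusted p = 3.4e-06). Insig1, the sterol sensor of the pathway, was near control at day 3 (568 ± 18.2 against 598 ± 17.4 CPM) and below it at day 7 (165 ± 13.0 against 341 ± 11.6 CPM), with a change of -0.97 (SE 0.12, adjusted p = 9.8e-06). Hmgcs1 gave -0.86 (SE 0.17, adjusted p = 0.0019) and Scd1, a fatty acid desaturase, -0.99 (SE 0.22, adjusted p = 0.0052).

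Interferon-stimulated genes rose in both, 40 of 41 in SEG cells and 36 in control cells. The effect was called higher for 7 and lower for none (17.1%), with a median of 0.79, and the count was 5 without replicate 1 of SEG at day 7 and 22 without both outlying libraries. Oas2, which senses double-stranded RNA, had 11.3, 10.8 and 7.88 CPM and then 46.8, 41.6 and 50.5 CPM in control cells, and 1.23, 0.792 and 1.94 CPM and then 15.7, 16.7 and 14.6 CPM in SEG cells. SEG stayed below control at day 7 and came nearer, with a change of 1.34 (SE 0.37, adjusted p = 0.019). Mx2, of a family of antiviral GTPases but annotated as a polymorphic pseudogene, gave 1.27 (SE 0.35, adjusted p = 0.019). Psmb9, an immunoproteasome subunit, gave 1.18 (SE 0.33, adjusted p = 0.022). Ifit3 had 30.8 ± 12.03 and 234 ± 28.3 CPM in SEG against 289 ± 43.4 and 905 ± 60.4 CPM in control cells, and its value of 1.28 (SE 0.55, adjusted p = 0.16) did not pass. Oas2, Mx2 and Ifit3 have close relatives among which reads may be split. The interferon-stimulated response element, 2 copies of GAAA with any 2 bases between them, read on both strands, lay in the windows of 13 of 31 members, 35.1% of their windows against 2.30% of all, and in 1 of the 3 called members with a window.

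Signalling lists held smaller groups of calls. Of 32 TGF-beta and BMP genes 9 were higher and 4 lower (40.6%), and without both outlying libraries 15 and 6. Smad6, an inhibitor of BMP signalling, had 108, 121 and 126 CPM and then 114, 121 and 108 CPM in control cells, and 121, 121 and 119.8 CPM and then 289, 283 and 295 CPM in SEG cells. All groups but SEG at day 7 overlapped, and the effect rose by 1.31 (SE 0.15, adjusted p = 3.4e-06). Of 31 guidance genes 5 were higher and 3 lower (25.8%), and 15 and 5 without both outlying libraries. Efna1, an ephrin ligand, rose in SEG cells from 26.1 ± 0.751 to 85.2 ± 12.9 CPM, with a change of 1.64 (SE 0.33, adjusted p = 0.0022). Of 30 Wnt genes 2 were higher and 3 lower (16.7%), and 4 and 3 without both outlying libraries, where 3774 of all 15003 genes tested were called. Sfrp1, a secreted Wnt antagonist, fell in SEG from 179.7 ± 7.85 to 40.6 ± 7.63 CPM, against 969 ± 59.1 and 722 ± 82.2 CPM in control, and gave -1.72 (SE 0.20, adjusted p = 4.4e-06). Among matrix proteases and inhibitors 3 were higher and 7 lower of 28 (35.7%), and 5 and 10 without both outlying libraries.

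Metabolic lists other than sterols held few calls or split. None of 36 nuclear genes of the respiratory chain was called by edgeR (0.0%, 1 lower without both outlying libraries), and of 27 glycolysis and hypoxia genes 1 was higher and 4 lower (18.5%), and 3 and 7 without both outlying libraries. Of 14 lipid uptake and adipogenic genes 3 were higher and 4 lower (50.0%), and 4 and 7 without them. Of 22 transcription factors of heart mesenchyme 2 were lower and none higher (9.1%). Without both outlying libraries 5 were lower and 1 higher, where 3774 of all 15003 genes tested were called. Osr1, one of these, had 133 ± 3.79 and 91.5 ± 5.61 CPM in SEG cells and 13.7 ± 1.35 and 29.1 ± 1.29 CPM in control cells, moving in from both sides by -1.63 (SE 0.12, adjusted p = 1.2e-08).

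Markers of other cell types that the cultures could hold moved as well. The 24 macrophage genes summed to 154 to 158 CPM in control at day 3, 201 to 257 CPM in control at day 7, 201 to 216 CPM in SEG at day 3 and 285 to 373 CPM in SEG at day 7, with Ccr2 at 0 in all 4 groups. Lyz2, which was not called, was the largest member. The other 23 genes summed to 68.1 to 74.6 CPM in control and 65.5 to 70.4 CPM in SEG at day 3. At day 7 they summed to 121 to 150 CPM in control and 152 to 203 CPM in SEG. Of 23 macrophage genes tested, 4 were called higher and 0 lower (17.4%). There were 2 higher without replicate 1 of SEG at day 7. Without both outlying libraries 5 were higher and 1 lower, where 3774 of all 15003 genes tested were called. Csf1r, the receptor of the macrophage growth factor, had 7.76, 6.49 and 7.22 CPM and then 6.86, 7.32 and 8.21 CPM in control cells, and 4.35, 5.13 and 5.35 CPM and then 16.3, 12.6 and 15.1 CPM in SEG cells, a change of 1.496 (SE 0.23, adjusted p = 1.6e-04). The part of these cells in the interferon and complement results was not tested. The 11 pericyte genes summed to 49.1 to 78.4 CPM in control, 220 to 269 CPM in SEG at day 3 and 461 to 581 CPM in SEG at day 7. Of 9 tested, 3 were called higher and 1 lower (44.4%, against 11.9% of all genes). Most of the sum in SEG cells came from Notch3 (129 and then 279 CPM on average) and Gja4 (74.0 and then 123 CPM), neither of which was called. Cspg4, a proteoglycan of pericytes, rose in SEG cells from 34.6 ± 5.45 to 91.2 ± 5.66 CPM with a change of 2.06 (SE 0.26, adjusted p = 1.4e-05). Rgs5, a signalling regulator of pericytes, was called lower, with 6.92 ± 2.24 and then 4.44 ± 2.13 CPM in SEG and 0.554 ± 0.0918 and then 2.31 ± 0.644 CPM in control cells, a change of -2.69 (adjusted p = 0.0016). The defining pericyte markers Kcnj8 and Abcc9 stayed under 1 CPM on average in SEG cells. The 12 mesothelial genes summed to 308 to 380 CPM in control at day 3, 2250 to 2820 CPM in control at day 7 and 27.4 to 68.1 CPM in SEG libraries. C3 is on that list and carries the rise, since the other 11 genes summed to 54.1 to 61.1 CPM in control at day 3 and 40.4 to 45.5 CPM at day 7. Of 8 tested, C3 and Aldh1a2 were called lower and none higher (25.0%, against 11.9% of all genes). The median change over the 8 was 0.59, so the list as a whole was not lowered. Without both outlying libraries 1 was higher and 2 lower. The part of mesothelial cells in the control changes was not tested. The 18 cardiomyocyte genes summed to 53.6 to 96.0 CPM in control and 6.95 to 17.9 CPM in SEG libraries, mostly as Tnnt2, with Myl3 and Ckmt2 at 0 throughout. Of the Schwann and neural list 3 of 8 were higher and none lower (37.5%), and 1 was lower without both outlying libraries. Of 16 markers of other blood cells 3 passed the filter and none was called.

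In the genes that moved the same way in both, the size of the move differed. Prom1, a membrane glycoprotein of progenitor cells, rose in control from 0.837, 0.892 and 0.870 CPM to 1.25, 1.41 and 1.40 CPM and in SEG from 4.40, 3.62 and 4.37 CPM to 39.0, 40.9 and 41.7 CPM. SEG lay above control at both days, and the effect rose by 2.65 (SE 0.20, adjusted p = 1.7e-08). Tenm4, a teneurin adhesion molecule, was lower in SEG than in control at day 3 (0.869, 0.453 and 0.673 against 3.07, 3.07 and 3.79 CPM) and higher at day 7 (11.2, 17.8 and 19.7 against 7.03, 7.41 and 6.77 CPM), with a change of 3.54 (SE 0.41, adjusted p = 5.3e-06). Apod, a lipid carrier, rose further in control cells, from 1.34, 3.81 and 2.71 CPM to 46.7, 53.4 and 42.6 CPM, against 25.9, 22.4 and 26.8 CPM and then 50.5, 42.7 and 38.4 CPM in SEG cells. The groups of Apod overlapped at day 7, where control had caught up, and the change was -3.36 (SE 0.39, adjusted p = 5.2e-06). Spns2, a transporter of sphingosine-1-phosphate, moved in opposite directions and crossed, with 2.40, 2.28 and 3.07 CPM and then 23.4, 23.5 and 21.7 CPM in control, 17.1, 15.0 and 18.5 CPM and then 10.5, 13.6 and 11.2 CPM in SEG cells and a change of -3.66 (SE 0.24, adjusted p = 2.5e-09). The neural adhesion gene Ncam1 fell in control from 67.4 ± 3.17 to 17.6 ± 1.29 CPM while SEG held 19.1 ± 0.844 and 23.8 ± 1.19 CPM, which turned the effect from -1.82 to 0.44.

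The day change of SEG cells was also set against that of cells labelled Erg and Sox17, a comparison chosen after the data were seen. It was larger or smaller than in Erg cells for 1354 genes higher and 1240 lower, and than in Sox17 cells for 534 higher and 573 lower. The Sox17 mean of day 7 includes the outlying replicate 1, and without it the counts were 2386 and 2290 against Erg and 961 and 1046 against Sox17 cells. With replicate 1 of SEG at day 7 left out too they were 3373 and 3117, and 1186 and 1204. Vwf changed by -0.88 in Erg cells and 2.04 in Sox17 cells against 4.24 in SEG cells, and SEG differed from both (adjusted p = 1.9e-07 and 0.0048). Adgrf5 did so as well, at -0.38 and 0.04 against 3.76, with adjusted p = 8.4e-10 and 1.6e-05. Mest changed by -3.21 in SEG cells, against -0.11 in Erg and -0.42 in Sox17 cells (adjusted p of the differences 1.2e-06 and 2.1e-04). For Jag2, the rise in SEG cells of 3.73 differed from the -0.41 in Erg cells (adjusted p = 1.9e-07) and not detectably from the 3.69 in Sox17 cells (adjusted p = 0.98). Klhl4 showed the same arrangement, with -2.55 in SEG, 1.46 in Erg and -2.83 in Sox17 cells, where the fall was -2.39 without replicate 1 of Sox17 at day 7. For Vwf, Adgrf5, Mest and Igfbp3 the difference from Sox17 cells passed without that library too (adjusted p = 0.0058, 2.5e-04, 1.8e-05 and 7.0e-06), and for Jag2, Klhl4 and Acta2 it did not (adjusted p = 0.95, 0.67 and 0.32). Igfbp3 rose in Erg cells by 2.34 and fell in SEG cells (-1.08), and Acta2 did not differ detectably in its day change between SEG (0.67), Erg (0.74) and Sox17 cells (0.63, and 0.34 without its replicate 1 of day 7; adjusted p = 0.89 and 0.96).

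Without replicate 1 of SEG at day 7, 1438 of the 1756 genes (81.9%) were still called and none changed sign. The values moved by a median of 0.07 in log2. More than a 1.5-fold shift was seen in 4 genes, and the largest shift was 1.96 in log2. In all 1575 genes were then called, and 598 moved in control alone, 436 in SEG alone, 208 in opposite directions and 304 the same way, so the order of the classes held. All 228 genes that had moved in opposite directions were among those still called, against 406 of the 506 that had moved in SEG alone and 498 of the 624 in control alone.

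**Figure D5:**
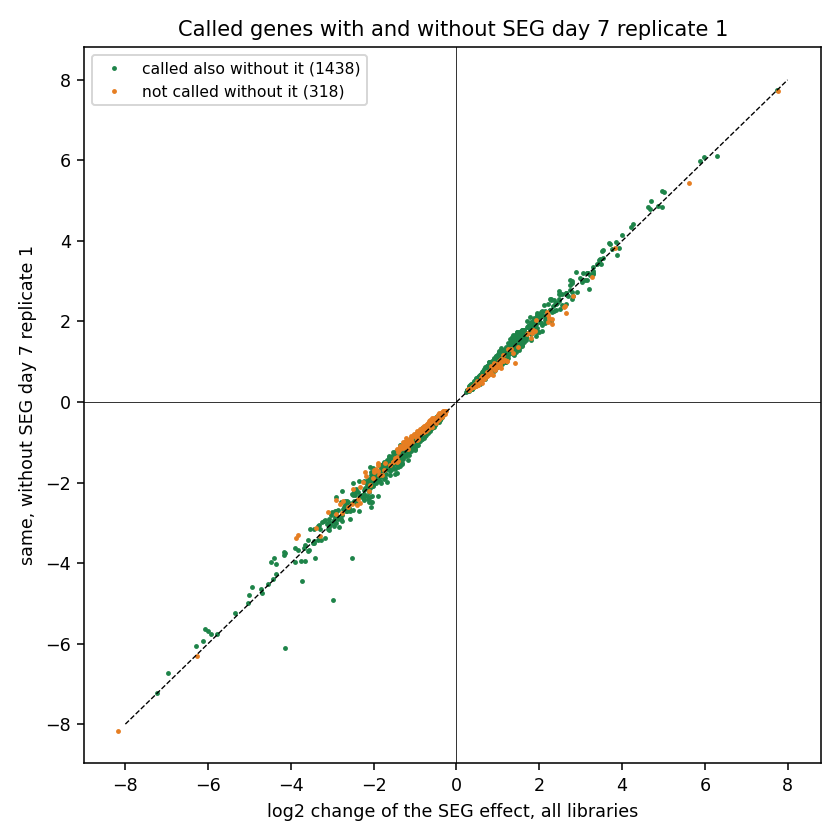
Each of the 1756 called genes is placed by its log2 change of the SEG effect with all libraries (horizontal axis) and without replicate 1 of SEG at day 7 (vertical axis), green where still called (1438) and orange where not (318); the dashed line marks equal values. Points keep their sign and lie near the line, apart from 4 genes that moved by more than 1.5-fold.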

How the data were processed

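The authors deposited 1 table of counts, whole numbers by Ensembl gene and library with no normalization. The submitters' processing notes name Salmon, DESeq2 and the build mm10. Versions, the annotation release, the strand setting and how counts became whole were not given in the sources used here, so genes with near-identical or overlapping copies are uncertain. Of 35727 identifiers 35422 carried a name.

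edgeR 4.0.16 and limma 3.58.1 ran in R 4.3.3. A minimum count of 10 was set in filterByExpr, and libraries were scaled by TMM. A quasi-likelihood model of 8 group means was fitted to all 24 libraries, with 2-sided tests, Benjamini-Hochberg adjustment over 14804 genes and calls at an adjusted p under 0.05. Log2 values are fitted with a prior count of 0.125, and an SE is the log2 value over the square root of its F statistic. CPM are relative to the TMM-scaled library size, given per library or as mean ± SD over 3 libraries. Total counts of 18794422 to 26827713 limit genes of a few CPM most, and a group at 0 allows up to 3 counts.

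Genes were named by rule: Sox17 and Erg, the 4 largest changes of each sign in each class of movement with at least 10 CPM in the highest group and still called without replicate 1 of SEG at day 7, the 4 genes with the largest day change among those under 10 counts in a group, up to 4 called members per list, and a fixed set of markers. Members, lists and the rule were chosen with earlier results of these data known, and genes outside the rule after their values were seen. Some genes are not reported here. Promoter windows of 200 bases and motif counts came from RefSeq starts on GRCm38.p6, and coordinates from GENCODE's annotation of mm10. Alternatives were RLE scaling, no filter, a fit of the 12 SEG and control libraries, replicate blocks, DESeq2 1.42.0, a change beyond 1.5-fold, a robust spread and leaving out libraries, with replicate 1 of Sox17 at day 7 added after seeing the data. The fit was tested on simulated data. No pair of libraries agreed within sampling noise, and each was counted once. Spread beyond sampling noise does not show that libraries came from separate cultures or mice. Tables were made with Python 3.11.15 and pandas 2.3.3, and figures with matplotlib 3.10.9.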

Additional observations from a re-analysis of the deposited data

Results flagged for a closer look

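The effect of SEG differed between the days in 902 genes that stood higher at day 7 and 854 that stood lower, by the test of the difference itself. Among the genes named, 9 had an effect called with opposite signs at the 2 days. Tenm4 (3.54), Col11a1 (2.29), Ncam1 (2.25), Csf1r (1.5), Rrm2 (1.45), Ccna2 (1.31), Mki67 (1.07) and Col1a1 (1.02) went from lower to higher in SEG cells, in log2 change of the effect. Spns2 (-3.66) went from higher to lower. Col11a1, a minor fibrillar collagen, fell in control cells from 658 ± 14.3 to 222 ± 3.29 CPM and had 259, 252 and 265 CPM and then 298, 493 and 487 CPM in SEG cells, where replicate 1 of day 7 was the lowest of its group.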

How the results depend on the processing

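All alternatives kept the sign of all 1756 changes where a value was fitted. RLE scaling, no filter, DESeq2 and a robust spread kept the counts higher and lower within 1.5 times. A single library left out gave 696 to 891 genes higher and 680 to 764 lower. SEG cells then rose in 1707 to 2075 genes and fell in 1550 to 1880, and control cells rose in 1867 to 2340 and fell in 1580 to 2131. SEG exceeded control in 2582 to 3063 genes at day 3 and 2894 to 3326 at day 7, and lay below it in 2554 to 3030 and 2765 to 3215. By movement, 389 to 469 genes moved in SEG alone, 478 to 619 in control alone, 172 to 208 in opposite directions, 251 to 305 the same way and 21 to 45 in neither. By effect, 454 to 534 grew, 162 to 190 shrank, 104 to 134 reversed, 361 to 441 were gained, 231 to 314 were lost and 6 to 11 passed at neither day.

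Larger shifts in counts came with the spread. Without both outlying libraries, where the shared coefficient of variation was 0.0690 against 0.170, 2127 genes were higher and 1647 lower. SEG cells rose in 3570 and fell in 3191, and control cells rose in 3753 and fell in 3606. The classes held 903 in SEG alone, 1204 in control alone, 538 opposite, 1054 the same way and 75 in neither, or 1206 grown, 621 shrunk, 359 reversed, 857 gained, 705 lost and 26 at neither day. A fit of the 12 SEG and control libraries, with a coefficient of 0.104, gave 1405 higher and 1341 lower, of which 938 moved in control alone, 388 opposite and 666 the same way, and 868 grew, 424 shrank, 242 reversed and 486 were lost. For a change beyond 1.5-fold, a stricter question, 229 were higher and 273 lower, with 169 in SEG alone, 201 in control alone, 23 opposite, 35 the same way and 74 in neither, and 159 grown, 37 shrunk, 9 reversed, 179 gained, 79 lost and 39 at neither day. In that test SEG cells rose in 804 and fell in 449, control cells rose in 768 and fell in 540, and SEG lay above control in 1332 and 1613 genes at day 3 and day 7 and below it in 1248 and 1551. DESeq2 put 30 genes at neither day, against 15 in edgeR.

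Whether the replicate numbers pair the samples could not be told from the values. Same-numbered libraries of SEG at the 2 days correlated at -0.0510, -0.132 and 0.149 in their deviations from the group means. Those with unlike numbers ran from -0.175 to 0.219, and deviations from means of 3 libraries cannot exclude a pairing. With the number as a replicate block over all libraries the counts stayed within 1.5 times, apart from 9 genes at neither day. A replicate block within condition gave 558 higher and 564 lower, with 412 in control alone, 184 the same way and 15 in neither.

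Among 131 named genes over all alternatives, 2570 values kept direction and call, 165 lost the call and 9 gained it. In 7 the sign turned, in 4 genes with at most 59 counts over the control libraries of a day and none called: Erg ran from -3.32 to 2.63 over single libraries left out and was 0.193, 0.247 and 2.63 without control replicates 1 and 3 of day 3 and replicate 1 of day 7. Gja5 (-0.877 to 3.58) was 0.295 and 3.58 without control replicate 3 of day 3 and replicate 1 of day 7, Pecam1 (-0.787 to 0.108) 0.108 and Dll4 (-0.0320 to 1.86) -0.0320 without control replicate 2 of day 3. The cause was not tested. Added after seeing the data, the day change of SEG against that of Erg cells had 2386 genes higher and 2290 lower without Sox17 replicate 1 of day 7, and 3373 and 3117 without both outlying libraries. Against Sox17 cells these were 961 and 1046, and 1186 and 1204, and Klhl4 turned to -0.152 without the Sox17 library, called in no case.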

Other observations

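Further genes with large changes moved on the control side, given with the log2 change of the effect in parentheses. Sparcl1, a matricellular protein, rose from 32.1 ± 3.72 to 289 ± 24.1 CPM in control cells (-3.45). Ahsg, the plasma protein fetuin, rose in both, from 3.55 ± 0.630 to 109 ± 8.94 CPM in control and from 0.326 ± 0.154 to 1.71 ± 0.276 CPM in SEG cells (-2.62). Mycn, a proliferation factor, fell in control from 11.3 ± 1.25 to 3.13 ± 0.517 CPM and had 9.57 ± 1.57 and 11.7 ± 1.73 CPM in SEG cells (2.14). On the SEG side, Sv2b, a vesicle protein, rose from 2.88 ± 0.251 to 27.1 ± 4.22 CPM (4.01), and Dnm1, a dynamin, fell from 2.28 ± 0.716 to 0.409 ± 0.148 CPM (-2.84). Both sides moved for Tinagl1, a matrix protein of vessel walls (2.40). It rose in SEG from 25.1 ± 1.33 to 91.0 ± 16.4 CPM and fell in control from 172 ± 17.0 to 118 ± 6.10 CPM. SEG stayed below control.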
